A study of Mus musculus with 11 samples.

Results

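The regions described here are places between protein-coding genes where the transcription factors RFX1 and RFX3 each had a reproducible peak and RFX2 had none. They were chosen by merging the peaks of the RFX1, RFX3 and RFX2 lists that shared at least 1 bp and keeping those with RFX1 and RFX3 only. The first RFX1 summit of a region had to lie outside every protein-coding gene and over 1 kb from its start and end. This left 1564 regions of 11236 merged regions in all, and of 4464 merged regions between genes. Presence in each list and the place of the RFX1 summit chose the members, so their peak values are given as a description without a test.

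RFX proteins bind DNA through a winged-helix domain at the X-box, an imperfect inverted repeat, as homodimers or as heterodimers with each other. They are best known for driving genes that build cilia, and RFX1 and RFX3 also belong to the family members expressed in brain. Ependymal cells are the multiciliated cells of the ventricle wall; they arise from radial glia and share many genes with astrocytes. Sites away from gene starts can be enhancers, which act on genes that need not be the nearest.

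The cells were ependymal cells grown and differentiated in culture from the lateral walls of wild-type OF1 mouse brain, listed as embryonic tissue with age P0. ChIP-seq, which sequences the DNA pulled down with an antibody, was done in 2 samples each for RFX1, RFX3 and RFX2, all in wild-type cells with no treatment. The other 5 of the 11 samples were input chromatin without antibody, 2 for RFX1, 1 for RFX3 and 2 for RFX2. The RFX1 list held 7440 peaks, the RFX3 list 9318 and the RFX2 list 1250, each already merged over its replicates. No value below therefore carries a replicate error. Sequencing depth is not known from these lists, and intervals on shares cover the counting of regions only. No expression was measured, so the identity of the cells could not be checked against marker genes.

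RFX1 and RFX3 without RFX2 made up 38.3% of all merged regions and 35% of the merged regions between genes; the rule itself fixes both shares. Of the 4298 regions with this pair, 1564 (36.4%) were between genes, 1842 (42.9%) inside genes and 892 (20.8%) at a gene end. "Between genes" refers to protein-coding genes: 403 members (25.8%) lay inside a noncoding gene or within 1 kb of its end, 398 of them at a lncRNA (long noncoding RNA) gene.

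DNA letters were at hand for 43 members, those whose RFX1 summit fell in the promoter window of a lncRNA gene, which runs from 250 bases before to 50 after a start. The letters come from RefSeq (GRCm38.p6) and are those of the reference strain, not of OF1. They were searched for an X-box written as the arm GTTNCC, 2 free letters and the inverted arm GGNAAC. This motif reads the same on both strands, and mismatches were counted at its 10 named letters. Of the 43 members, 32 held a match with up to 2 mismatches centred within 100 bp of the summit, and 12 held one with up to 1 mismatch. These 12 are shown because they are the clearest X-boxes among the members; capitals mark the match, read along the lncRNA gene.
Gm31318: GTTACCGTGGCAAC
1700012C14Rik: GTTTCCATGGCAAC
Gm36908: GTTGCCATGGTAAT
Gm30296: GTTACCATAGGAAC
Gm29805: GTCTCCATGGCAAC
Gm9530: GTCGCCATGGGAAC
1110002O04Rik: GTAACCATGGTAAC
3930402G23Rik: GTTTCCAGGCCAAC
1700054K19Rik: GTTACCATGGAAAT
2010308F09Rik: GTTGCTAGGGTAAC
Gm14170: GTTGCCATGGCAGC
9430078K24Rik: GTTGTCTTGGTAAC

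The first pair had no mismatch at a named letter. In the sites with up to 2 mismatches the free letters in the middle were most often A and then T: A stood first in 25 of the 32 sites and T second in 22. The opening G was present in 31 of the 32 and the closing C in 29. These 2 are named letters, so the limit of 2 mismatches itself favours them.

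Whole windows follow for 4 of these members, to show where the match lies against the start of the gene, which is 50 bases before the end of each line. They are Gm31318 at chr11:114303572-114303871 on the plus strand, 1700012C14Rik at chr6:30460735-30461034 on the plus strand, Gm36908 at chr10:25621514-25621813 on the minus strand and 9430078K24Rik at chr12:79925445-79925744 on the minus strand.
Gm31318: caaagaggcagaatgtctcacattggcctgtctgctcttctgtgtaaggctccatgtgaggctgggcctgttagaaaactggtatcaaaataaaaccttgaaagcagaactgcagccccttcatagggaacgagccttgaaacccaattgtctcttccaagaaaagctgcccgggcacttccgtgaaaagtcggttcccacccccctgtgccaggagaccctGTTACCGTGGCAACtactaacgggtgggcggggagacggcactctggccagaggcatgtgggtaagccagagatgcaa
1700012C14Rik: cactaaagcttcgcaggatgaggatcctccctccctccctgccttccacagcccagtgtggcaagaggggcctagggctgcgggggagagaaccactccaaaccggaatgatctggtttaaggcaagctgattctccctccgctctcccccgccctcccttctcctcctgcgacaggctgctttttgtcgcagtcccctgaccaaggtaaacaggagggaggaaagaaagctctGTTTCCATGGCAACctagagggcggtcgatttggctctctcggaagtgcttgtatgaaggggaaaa
Gm36908: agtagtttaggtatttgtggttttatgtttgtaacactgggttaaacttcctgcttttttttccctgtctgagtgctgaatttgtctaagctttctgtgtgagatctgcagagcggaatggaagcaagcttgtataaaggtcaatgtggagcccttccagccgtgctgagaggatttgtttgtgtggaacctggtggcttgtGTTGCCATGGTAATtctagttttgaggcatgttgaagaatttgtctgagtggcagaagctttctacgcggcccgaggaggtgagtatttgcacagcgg
9430078K24Rik: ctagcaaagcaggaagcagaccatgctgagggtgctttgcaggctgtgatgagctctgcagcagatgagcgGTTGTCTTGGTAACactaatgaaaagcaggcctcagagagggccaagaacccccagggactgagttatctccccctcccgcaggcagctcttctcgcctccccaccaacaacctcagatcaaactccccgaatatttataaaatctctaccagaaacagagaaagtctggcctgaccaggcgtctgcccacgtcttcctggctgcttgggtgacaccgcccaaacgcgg

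In the 1700012C14Rik window the centre of the match was 0.5 bp from the RFX1 summit, and in that of 9430078K24Rik it was 3.5 bp away on the upstream side. At Gm31318 and Gm36908 the match lay 18.5 and 17.5 bp upstream of the RFX1 summit. Gm36908 is one of the members whose RFX1 and RFX3 summits lay over 100 bp apart, at 25621587 and 25621394. The match shown was near the RFX1 summit. The RFX3 summit lies outside the window, so whether an X-box is present there could not be searched. RFX1 and RFX3 folds at Gm31318 were 10.6 and 5.04, at 1700012C14Rik 6.55 and 3.54, at Gm36908 8.69 and 24.9 and at 9430078K24Rik 4.33 and 3.99.

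Across whole windows, 33 of the 43 members (76.7%, 95% exact Clopper-Pearson interval 61.4 to 88.2) held the X-box with up to 2 mismatches, against 13.4% of all 11588 lncRNA promoter windows. With up to 1 mismatch the shares were 27.9% (15.3 to 43.7) in members and 2.47% in all lncRNA windows, and with none 4.65% and 0.492%. Protein-coding promoter windows held the X-box in 14.2% and 2.61% of cases with up to 2 and up to 1 mismatches. Allowing 1 to 3 free letters between the arms, a choice made after seeing the data, gave 39 of 43 members (90.7%) with up to 2 mismatches and 28.9% of all lncRNA windows. The matches also lay close to the summit. Their centres were a median of 11 bp away, 24 of 32 lay within 20 bp and 30 within 50 bp.

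**Figure D1:**
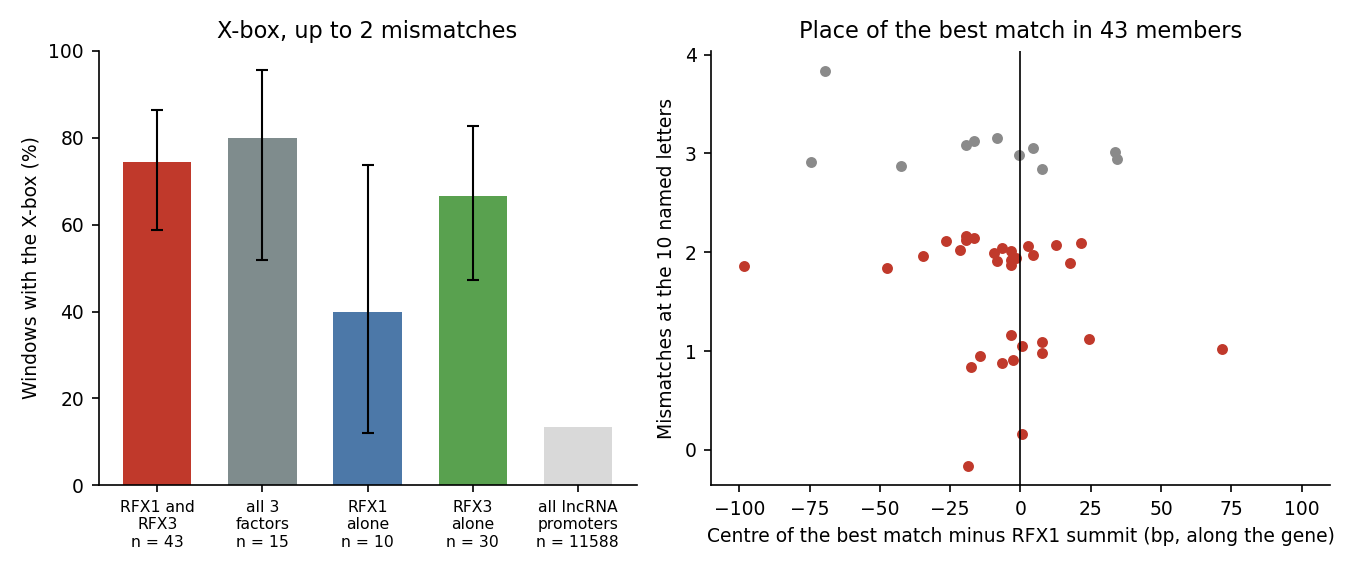
Left, share of lncRNA promoter windows that hold the X-box with up to 2 mismatches (%), for windows with the summit of an RFX1 and RFX3 region or of another class of region between genes (within 100 bp of the summit; bars, 95% exact intervals) and for all lncRNA windows (anywhere in the window). Right, for the 43 members, distance in bp from the RFX1 summit to the centre of the best match within 100 bp, by number of mismatches (dots within a row are spread for legibility); most dots with up to 2 mismatches, in red, sit within 20 bp of the summit.

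No difference in the X-box between members and the other classes was called. Within 100 bp of the summit it was present in 32 of 43 members (74.4%, 58.8 to 86.5), in 12 of 15 windows with all 3 factors (80.0%, 51.9 to 95.7), in 4 of 10 with RFX1 alone (40.0%, 12.2 to 73.8) and in 20 of 30 with RFX3 alone (66.7%, 47.2 to 82.7). By Fisher's exact test (two-sided) the odds ratios of members against these classes were 0.731, 4.22 and 1.45, in that order, with p = 1, 0.175 and 0.787 after adjustment. The intervals of the odds ratios ran from 0.112 to 3.48, from 0.827 to 24.5 and from 0.459 to 4.55, so with so few windows differences of several-fold were not detectable, in either direction against all 3 factors and towards more X-boxes in members against RFX1 alone and RFX3 alone. CpG-rich sequence, with at least 0.6 of the expected CpG within 100 bp of the summit, was seen in 6 of 43 members (13.95%). It was seen in 3 of 15 windows with all 3 factors, 3 of 10 with RFX1 alone and 1 of 30 with RFX3 alone, and none of these differences passed Fisher's exact test (adjusted p = 0.787, 0.648 and 0.488).

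Peak strength ranged widely among the 1564 members. Fold enrichment, the ratio of ChIP signal to the peak caller's background as deposited by the authors, had a median of 7.36 for RFX1 (lowest 3.40, highest 23.3) and 8.79 for RFX3 (lowest 2.17, highest 35.5). The median −log10 q, the peak caller's false discovery rate on a log scale, was 26.1 for RFX1 and 24.9 for RFX3. In the RFX1 list 13 members were among the best 10% of peaks by −log10 q and 410 among the lowest 25%. In the RFX3 list 100 were among the best 10% and 226 among the lowest 25%. Members of high RFX1 fold tended to have a high RFX3 fold, but loosely: Spearman's rho over the 1564 regions was 0.252 and Pearson's r on a log2 scale 0.269. These values share the cells and the genome, and regions are not independent replicates.

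**Figure D2:**
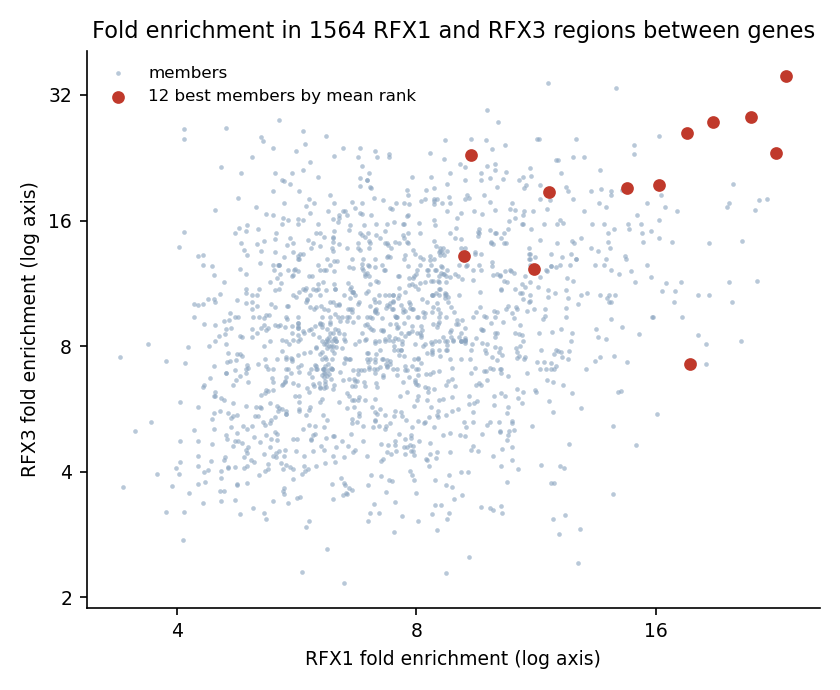
RFX1 fold enrichment (x, log axis) against RFX3 fold enrichment (y, log axis) in each of the 1564 RFX1 and RFX3 regions between genes, with the 12 best members by mean rank in red. The cloud is broad, with RFX1 folds from 3.40 to 23.3 and RFX3 folds from 2.17 to 35.5.

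By fold, members had higher RFX3 and lower RFX1 values than the same pair of factors at gene ends. The median RFX3 fold was 8.79 between genes, 7.84 inside genes and 4.42 at gene ends. For RFX1 the order was different, with medians of 7.36 between genes, 7.30 inside genes and 8.19 at gene ends. By −log10 q the RFX3 medians were 24.9, 23.6 and 28.8 and the RFX1 medians 26.1, 27.4 and 47.6, in the same order of places. For both factors fold and −log10 q therefore ordered the places differently. Median RFX1 and RFX3 folds of members, 7.36 and 8.79, were lower than those of regions between genes with all 3 factors, 12.8 and 13.1. Regions between genes with RFX1 alone or RFX3 alone had medians of 6.40 and 7.45. Presence in the lists formed these classes, so no difference in peak values between them was tested.

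Every member held 1 RFX1 peak and 1 RFX3 peak, and their summits nearly coincided. The median distance between them was 18 bp, with 850 members (54.3%) within 20 bp and 1382 (88.4%) within 50 bp. Only 31 members (1.98%) had summits over 100 bp apart, and the largest distance was 524 bp. The RFX1 peaks were a median of 313 bp wide and the RFX3 peaks 272 bp.

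**Figure D3:**
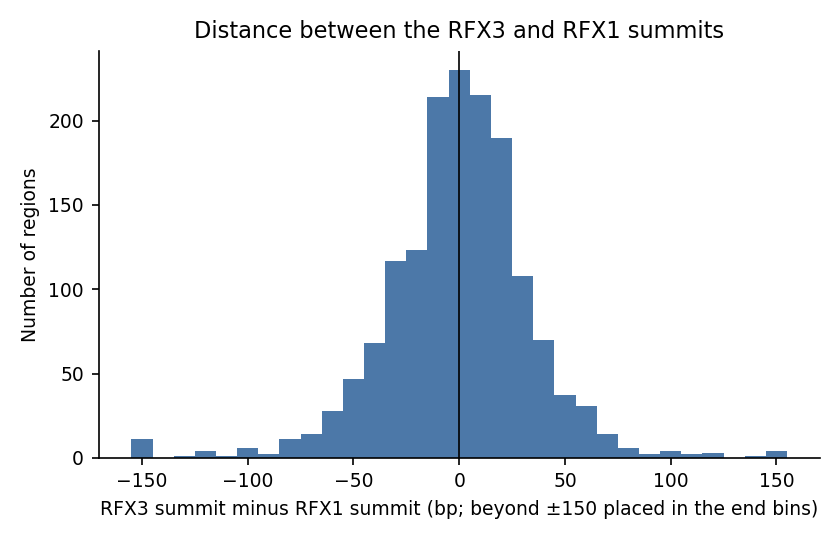
Number of regions by the position of the RFX3 summit relative to the RFX1 summit (bp, bins of 10 bp, values beyond 150 bp in the end bins). The counts are highest around 0, with 88.4% of the members within 50 bp.

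The 12 members with the lowest mean rank of −log10 q over both lists were named by a fixed rule. The best lay at chr14:103898778-103899675, 54759 bp from the start of Ednrb, the endothelin receptor B gene, and at the lncRNA gene 4930518C04Rik. It had the highest fold of all members in both lists, 23.3 for RFX1 and 35.5 for RFX3, with −log10 q of 140.2 and 121. The next, at chr7:126809006-126809469, had the highest RFX1 −log10 q of the members (150.9) but an RFX3 fold of only 7.24, and lay 4810 bp from the start of Tlcd3b. A region at chr15:27204803-27205266 had RFX1 and RFX3 folds of 18.8 and 27.6, and the nearest gene was Ank, which encodes a membrane protein of pyrophosphate export, 261616 bp away.

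Hepacam, the gene of a glial cell adhesion molecule, lay 7518 bp from a region at chr9:37359540-37360102 with RFX1 and RFX3 folds of 9.37 and 23.03. Slc16a1, a monocarboxylate transporter gene, lay 41335 bp from one at chr3:104597047-104597517 with folds of 11.3 and 12.3. Ddit4 and Ddit4l, a related pair of inhibitors of mTOR signalling, each had one: the region at Ddit4 was 5766 bp away with folds of 9.20 and 13.2, and that at Ddit4l 55377 bp away with 17.5 and 25.9. These are neighbours on the map; no link between a region and a gene was measured.

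The remaining 5 of the 12 lay near Acta2, the smooth muscle actin gene (10040 bp), 2300002M23Rik (22124 bp), Npvf, a neuropeptide precursor gene (122932 bp), Qpct, a glutaminyl cyclase gene (90436 bp), and Pstpip1, a cytoskeletal adaptor gene (2941 bp). Their RFX1 folds ran from 11.7 to 22.7 and their RFX3 folds from 18.8 to 28.3.

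Some members were high in one list and low in the other. At chr12:38778629-38779047, 1291 bp from the start of the ETS factor gene Etv1, RFX1 had a fold of 12.8 and RFX3 of 2.42. The regions near Faap20, Sdc3, Ssh3 and Mdm1 were alike, with RFX1 folds between 12.1 and 14.1 and RFX3 folds between 2.84 and 3.54. In the other direction, a region at chr10:84172936-84173354 had an RFX1 fold of 4.08 and an RFX3 fold of 26.6, 197745 bp from the kinase gene Nuak1. Regions near Xylt1, Kctd12, Gm12447 and Amigo2 had RFX1 folds from 4.08 to 5.38 and RFX3 folds from 25.1 to 27.9. Folds of different lists come from different antibodies and libraries, so a ratio between them is no measure of how much of each factor was bound.

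Members lay a median of 35038 bp from the nearest end of a protein-coding gene (10th to 90th percentile 4390 to 261342 bp). Of the 1564, 181 (11.6%) lay within 5 kb, 170 (10.9%) between 5 and 10 kb, 219 (14.003%) between 10 and 20 kb, 352 (22.5%) between 20 and 50 kb, 233 (14.9%) between 50 and 100 kb, 362 (23.1%) between 100 and 500 kb and 47 (3.01%) farther out. For the 1233 members whose nearest gene had a known strand, that end was a start in 641 cases (52.0%, 49.2 to 54.8) and a 3′ end in 592. The share at a start was 49.7% within 5 kb, 52.9% between 5 and 50 kb and 51.6% farther out.

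Members lay closer to genes than regions with RFX3 alone. The summit was over 50 kb from a gene end in 642 of 1564 members (41.05%, 38.6 to 43.5), against 976 of 1893 regions with RFX3 alone (51.6%, 49.3 to 53.8). The odds ratio was 0.654 (0.570 to 0.751; two-sided Fisher's exact test, adjusted p = 1.05e-08). No difference passed against regions with all 3 factors (40.3%, 35.1 to 45.7), where the odds ratio was 1.03 with an interval of 0.807 to 1.32 (adjusted p = 0.918 by Fisher's exact test), or with RFX1 alone (42.4%, 38.6 to 46.3), where it was 0.945 with an interval of 0.782 to 1.14 (adjusted p = 0.787). Since regions of 1 genome share chromosomes and neighbourhoods, every p here speaks of the deposited peak lists and not of further animals. With every list shortened to 1250 peaks only 22 members were left, and the odds ratio against RFX3 alone was 1.07 (Fisher's exact adjusted p = 1).

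**Figure D4:**
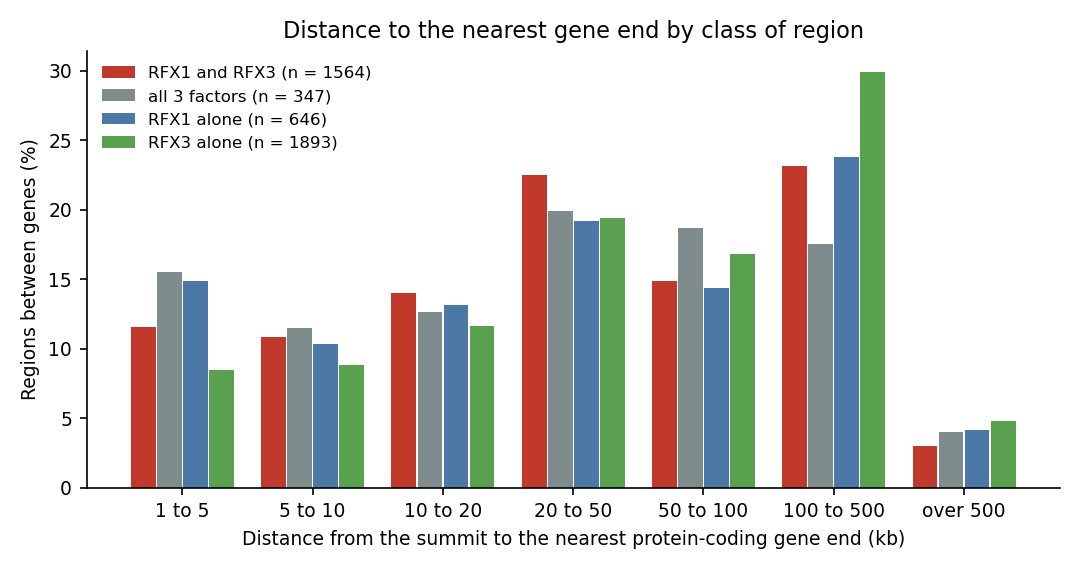
Share of regions between genes (%) in each band of distance from the summit to the nearest protein-coding gene end (kb), for RFX1 and RFX3 regions and the other 3 classes. From 100 to 500 kb RFX1 and RFX3 regions reach 23.1%, and RFX3 alone has the highest bar (29.95%).

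The median RFX3 fold differed mainly at both ends of the distance range. It was 7.01 for members within 5 kb of a gene end, between 8.41 and 8.94 in the 4 bands from 5 to 100 kb, 9.60 between 100 and 500 kb and 11.8 in the 47 members beyond 500 kb. The RFX1 median was 7.07 within 5 kb, 7.30 between 100 and 500 kb and 8.73 farther out. Median RFX3 −log10 q did not follow the RFX3 fold: it was 24.7 within 5 kb, 22.4 between 100 and 500 kb and 26.2 farther out. Over all members Spearman's rho of distance was -0.0995 with RFX1 −log10 q and -0.0386 with RFX3 −log10 q. With the ratio of RFX1 fold to RFX3 fold it was -0.142.

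At the limit of 1 kb, members just outside and regions just inside spanned overlapping ranges of fold. The 3 members just over it lay 1027 bp from Dyrk3, 1029 bp from Nagk and 1037 bp from Id1, an inhibitor of basic helix-loop-helix factors. Their RFX1 folds were 12.4, 7.199 and 6.34 and their RFX3 folds 7.78, 7.84 and 4.59. The 3 regions just under it lay 999 bp from Bace2, 998 bp from 4933407O12Rik and 991 bp from A4gnt, with RFX1 folds of 11.6, 7.17 and 7.93 and RFX3 folds of 21.6, 4.74 and 8.92. At the far end, the most isolated members were 2116706 bp from Pcdh20, 1729288 bp from Iftap and 1508795 bp from Ncam2, with RFX1 folds from 5.21 to 8.19 and RFX3 folds from 7.06 to 9.80.

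Noncoding genes were at hand somewhat more often than for RFX3 alone. A noncoding gene held the summit or had an end within 1 kb in 403 members (25.8%, 23.6 to 28.0), against 412 of 1893 regions with RFX3 alone (21.8%, 19.9 to 23.7). The odds ratio was 1.25 (1.06 to 1.46; two-sided Fisher's exact test, adjusted p = 0.0309). It no longer passed with the better-scoring 50% of peaks (1.26, adjusted p = 0.255 by Fisher's exact test) or with 1250 peaks per list (2.46, adjusted p = 0.572). The shares were 27.7% with all 3 factors and 22.9% with RFX1 alone, and neither difference passed the test (odds ratios 0.908 and 1.17, with adjusted p = 0.764 and 0.401 by Fisher's exact test). Among members 331 (21.2%) lay inside a noncoding gene and 148 (9.46%) within 1 kb of an end of one, and some were counted in both.

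No share over other regions was set beside the following counts: microRNA hairpins lay within 10 kb of 13 members and within 1 kb of 3. A pair of these were at copies of the Mir344 family on chromosome 7: the summit at 61837544 lay 142 bp from Mir344c, with RFX1 and RFX3 folds of 18.7 and 14.1, and that at 61940254 lay 148 bp from Mir344-2, with folds of 8.69 and 8.23. The third lay 380 bp from Mir760 on chromosome 3 (folds 5.599 and 3.83). Mature sequences from RefSeq are shown for these hairpins, with the seed (bases 2 to 8) in capitals, because the Mir344 copies share both seeds.
mmu-miR-344c-3p: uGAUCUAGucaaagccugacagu
mmu-miR-344-3p: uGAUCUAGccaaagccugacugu
mmu-miR-344c-5p: aGUCAGGCugcuggcuagaguac
mmu-miR-344-5p: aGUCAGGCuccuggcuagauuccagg
mmu-miR-760-3p: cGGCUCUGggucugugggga

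Both Mir344 copies had their summit on the side of the hairpin that lies upstream on its minus strand, at nearly the same distance. Their nearest protein-coding gene, Ndn, was 510733 and 408023 bp away. The copies are related in sequence, and whether reads at them could be told apart was not tested. Regions with RFX3 alone lay in the same stretch of chromosome 7. Their summits were at 61645167, 61681814 and 61878025, with RFX3 folds of 7.45, 7.06 and 7.06. Mir135a-2 lay 1984 bp from a member with RFX1 and RFX3 folds of 8.52 and 11.4, and Mir9-2, of the neural miR-9 family, lay 6277 bp from one with folds of 9.30 and 2.49.

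Members often had another RFX region close by. Within 50 kb of the summit there was a further merged region of any class for 841 members (53.8%, 51.3 to 56.3), against 892 regions with RFX3 alone (47.1%, 44.9 to 49.4) and 308 with RFX1 alone (47.7%, 43.8 to 51.6). Both differences passed (odds ratios 1.31 and 1.28, with adjusted p = 0.000841 and 0.0376 by two-sided Fisher's exact tests). Regions with all 3 factors reached 55.0% (49.6 to 60.4), and the odds ratio was 0.9501 with an interval of 0.746 to 1.21 (adjusted p = 0.787 by Fisher's exact test). Neither passed Fisher's exact test with a distance of 20 kb (odds ratio 1.16 for both, adjusted p = 0.223 and 0.401), with the better-scoring 50% of peaks (1.33 and 1.02, adjusted p = 0.0691 and 1) or with 1250 peaks per list (1.48 and 1.73, adjusted p = 0.683 for both). Against RFX1 alone the call was also lost with 5 kb around genes (1.23, Fisher's exact adjusted p of 0.148) and with all annotated genes (1.18, adjusted p of 0.262). The neighbour was another RFX1 and RFX3 region for 435 members, a region with RFX3 alone for 397, with RFX1 alone for 206 and with all 3 factors for 128. A member can have several. The classes are not equally common: RFX1 and RFX3 regions made up 38.3% of all merged regions. Between genes the classes, in the same order, held 1564, 1893, 646 and 347 regions. Whether members met any class more often than its frequency gives was not tested. Being a neighbour is mutual, so regions close together score through each other. Fisher's exact test takes regions as independent, which these are not.

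When members within 50 kb of each other were chained, 1247 stood alone, 129 chains held 2 and 17 held 3 or more. The longest held 6 members over 151 kb of chromosome 12, near Cipc, Irf2bpl and Lrrc74a, with RFX1 folds from 4.46 to 11.3 and RFX3 folds from 4.50 to 13.1. Chains of 5 lay beside Camk2n1 and Vwa5b1 on chromosome 4 (72.6 kb) and beside Rad51b on chromosome 12 (79.0 kb). A chain of 4 lay upstream of Epha4 over 68.3 kb, and the densest chain of 3 spanned 6.50 kb beside Ggta1 on chromosome 2.

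The members had 1288 different nearest genes, of which 1068 had 1 member, 174 had 2 and 46 had 3 or more. Rad51b, a recombination gene, Sox2, a factor of neural progenitors, and Irs2, an adaptor of insulin signalling, had 5 each. Epha4, a receptor for ephrins, Sorcs1, a sorting receptor gene, Arrdc3, an arrestin-domain gene, and St3gal1, a sialyltransferase gene, had 4 each. Counting regions between genes of every class, Rad51b was nearest to 6, Sox2 to 12 and Irs2 to 8. For Epha4 and Sorcs1 that count was 5, and for Arrdc3 and St3gal1 it was 6. Members are 35% of all merged regions between genes, and these genes were picked for having many members. Of the 46 genes with 3 or more members, 10 were named, with ties at 3 members settled by the rank of the best member; Npvf, Fat4 and Arntl were the 3 taken from those ties. None of these 10 genes had an RFX region of any class at its own ends.

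The 5 members at Sox2 formed a group of 3 at 56553, 58622 and 81726 bp and a pair at 488594 and 489571 bp. The one with the highest RFX1 fold, 58622 bp away, had RFX1 and RFX3 folds of 12.2 and 8.79, and the others had RFX1 folds from 4.73 to 10.1 and RFX3 folds from 4.74 to 9.66. All Rad51b members lay on the same side of the gene, 43814 to 122810 bp from its end, with RFX1 folds from 4.33 to 8.99 and RFX3 folds from 3.99 to 9.24. One of them is the lncRNA promoter 9430078K24Rik shown above. The Irs2 members ranged from 13415 to 172183 bp, and the one at 56067 bp is the promoter of the lncRNA gene 3930402G23Rik. The Epha4 members ranged from 17294 to 85618 bp and had higher RFX3 folds, with values from 8.08 to 19.996, than RFX1 folds, with values from 7.68 to 10.3.

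**Figure D5:**
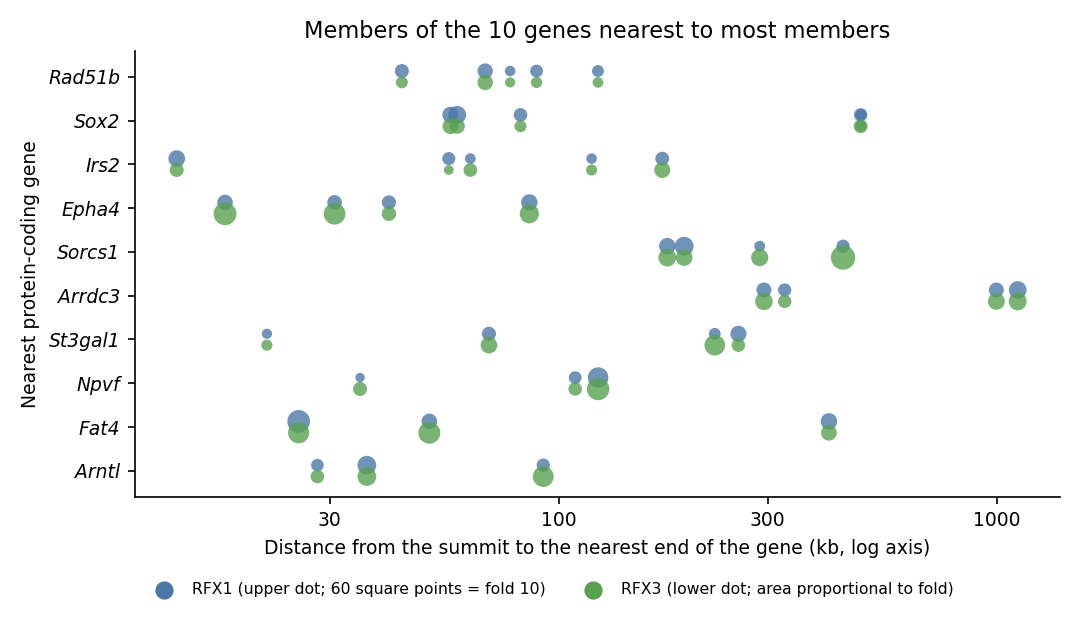
Members (dots) by distance in kb (log axis) from the nearest end of the gene, for the 10 protein-coding genes nearest to most members, ties settled by the rank of the best member; the upper dot of a pair is RFX1 and the lower RFX3, with area proportional to fold enrichment. Rad51b, Sox2 and Irs2 have 5 members each, and the members of Arrdc3 lie farthest away, up to 1115516 bp.

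The nearest gene carried an RFX region at one of its ends for 156 members (9.97%, 8.53 to 11.6), against 10.1% of all 21887 protein-coding genes. The share was 11.8% for regions with all 3 factors, 11.8% with RFX1 alone and 10.3% with RFX3 alone.

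Nearest genes were read against 18 gene lists of 600 genes, written with earlier results of these data known. A gene of some list was nearest to 157 members (10.04%, 8.59 to 11.6) and to 278 of the 2900 other regions between genes (9.59%), a difference that was not tested. Both shares were above the 2.74% of all protein-coding genes that the listed genes make up. That is a share of genes and not of regions, and the length of the stretch beside each gene was not taken into account. It is therefore no measure of enrichment, and the same holds for the shares of genes given for single lists below. Counts per list are descriptions too, and a gene can stand in several lists.

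Of 105 genes of ciliary structure, 3 were nearest to 4 members (0.256%, 0.0697 to 0.654), against 13 of 2900 other regions (0.448%). These genes are 0.480% of all protein-coding genes, a share that lies within the members' interval. The transition zone gene Nphp4 had 2 members, the better 62517 bp away with RFX1 and RFX3 folds of 6.65 and 5.93. Tekt4, which encodes a filament protein of axonemal microtubules, had a member at 3703 bp with folds of 4.64 and 7.70, and an RFX1 region at its own end. Of 19 genes of the multiciliated cell programme, Hes1 alone had members. It had 3 (0.192%), against 4 of 2900 other regions for the list (0.138%), and the list is 0.0868% of all protein-coding genes. No member lay nearest to one of the 7 RFX genes (0 of 1564; a limit of 3 counts allows a share of up to 0.192%), and 1 of 2900 other regions did (0.0345%).

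Astroglial and radial glial genes, 0.210% of all protein-coding genes, were nearest to 27 members (1.73%), against 43 other regions (1.48%), through 15 of 46 genes. Besides Sox2 these included Id4, with 3 members, and Slc1a3, the glial glutamate transporter gene, and Gja1, which encodes the gap junction protein connexin 43, with 2 each. The best member at Id4 lay 418596 bp away with RFX1 and RFX3 folds of 11.2 and 15.3. The best at Gja1 lay 136334 bp away with folds of 18.7 and 10.6, and the best at Slc1a3 lay 70557 bp away with folds of 6.18 and 6.78.

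Developmental transcription factor genes made up the largest listed group, with 53 members (3.39%) at 34 of 104 genes, against 111 other regions (3.83%). They are 0.475% of all protein-coding genes. Pou3f3, a POU factor gene, had 3 members, the best at 155358 bp with RFX1 and RFX3 folds of 8.33 and 23.3.

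In signalling lists the counts were small. Growth factor and receptor genes were nearest to 16 members (1.02%, 0.586 to 1.66) and to 11 other regions (0.379%), among them the neurotrophin receptor genes Ntrk2 and Ntrk3 with 2 members each and Fgfr2 and Spry2 with 1 each. The best Ntrk2 member lay 11916 bp away at the lncRNA gene Gm34307, with RFX1 and RFX3 folds of 10.4 and 10.01. Genes of the BMP and TGF-beta pathway were nearest to 14 members (0.895%) and 23 other regions (0.793%), and Smad6, an inhibitory Smad gene, had 3, the best at 28121 bp with folds of 10.4 and 4.90. Id2, a target of BMP signalling, had 2 members, the best at 2851 bp with folds of 12.1 and 7.73.

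Notch pathway and Hes genes were nearest to 8 members (0.512%) and 7 other regions (0.241%). Hes1, a Notch target that represses neuronal genes, had 3, the best at 149872 bp with RFX1 and RFX3 folds of 12.3 and 4.09, and Hey2 had 2, the best at 11265 bp with 8.94 and 14.5. Wnt and planar polarity genes had 7 members (0.448%, against 0.310% of other regions), of which Wnt5a had 2 and Fzd8, Fzd6 and Ctnnb1 1 each. Hedgehog genes had 4 members (0.256%, against 0.241%), 1 each at Cdon, Gli2, Ptch1 and Gas1. Axon guidance and adhesion genes had 16 (1.02%, against 1.59%), led by Epha4 with 4 and the ephrin gene Efnb2 with 3. Hippo pathway genes had 4 (0.256%, against 0.207%), 3 of them at the atypical cadherin gene Fat4. Ion and water transport genes had 8 (0.512%, against 0.310%), 2 of them at Slc16a1.

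Lists of other cell types were short. Neuronal genes, 0.174% of all protein-coding genes, were nearest to 12 members (0.767%, against 0.552% of other regions) through 11 of 38 genes. Oligodendrocyte lineage genes had 3 (0.192%, against 0.0690%), 1 each at Olig2, Pdgfra and Sox10. Choroid plexus genes had 4 (0.256%) and no other region, with 2 at Msx1 and 1 each at Ttr and Otx2. Microglial genes had 2 (0.128%, against 0.172%) and endothelial and mural genes 2 (0.128%, against 0.0690%).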

How the data were processed

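ChIP-seq lists of RFX1, RFX3 and RFX2 peaks were used, 1 per factor, with replicates merged before deposit. Tools in the submitters' processing notes are MACS2 2.0.10.20130520, Bowtie 0.12.7 and CASAVA 1.8.2, on build GRCm38; their settings, and how a peak qualified as reproducible, are not stated there. Per peak the authors deposited a score (the whole part of 10 times the −log10 q), a fold enrichment (read here as a ratio of ChIP to background), a −log10 p (3 columns, 1 per list, not used), a −log10 q and a summit offset. Peaks were used as deposited.

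Peaks sharing at least 1 bp were merged, and genes came from RefSeq GRCm38.p6 (21887 protein-coding genes). No genome was used, so the planned X-box and CpG tests were limited to 43 members with the summit in one of the 11588 lncRNA promoter windows of 300 bases, and CpG was counted over the letters within 100 bp of the summit that the window holds. Members were compared with the other 3 main classes of regions between genes by two-sided Fisher's exact tests (scipy 1.17.1), with Benjamini-Hochberg adjustment over 15 tests and a threshold of 0.05; classes with under 5 windows were not tested. Intervals are 95% exact Clopper-Pearson for shares and exact conditional for odds ratios. The steps were tested on simulated data. None of the 12 best members lies in such a window, so the sequences shown were chosen by X-box mismatches after the letters were read. Named were the 12 best members by mean rank, the extremes of fold ratio and of distance, the 10 genes nearest to most members and up to 4 genes per list. Of 633 list entries, 628 matched by symbol and 5 by synonym. Alternatives covered peak overlap, peak threshold, list length, gene window, gene set, summit and each measure's limits. Members, lists and tests were chosen with earlier results of these data known. No sequence is shown for chromosome 18. Some genes that the naming rule picked are not reported here.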

Additional observations from a re-analysis of the deposited data

How the results depend on the processing

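Of the values recomputed, 79 were taken as unchanged: 4 counts of members, and otherwise odds ratios that kept their direction and call. A further 14 changed direction, 10 lost a call with the direction kept, and 2 counts moved. With the better-scoring 50% of peaks there were 648 members and with 1250 peaks per list 22, in place of 1564. There were 1147 with all annotated genes and 1383 with 5 kb around genes, both counted above as unchanged. With the better-scoring 50%, odds ratios of members changed direction for the distal share against all 3 factors (0.900) and RFX1 alone (1.14) and for the neighbour share against all 3 factors (1.04), none of them called before or after. The noncoding gene share against RFX3 alone (1.26) and the neighbour share against RFX1 alone (1.02) and RFX3 alone (1.33) lost their calls. With 1250 peaks per list the direction changed for the distal share against all 3 factors (0.896), RFX1 alone (1.93) and RFX3 alone (1.07), the noncoding gene share against all 3 factors (1.99) and the neighbour share against all 3 factors (1.37). The distal share against RFX3 alone, which changed direction, also lost its call there. Calls were lost too for the noncoding gene share against RFX3 alone (2.46) and the neighbour share against RFX1 alone (1.73) and RFX3 alone (1.48). X-box and CpG shares were not run with so few windows, nor with all annotated genes. With 5 kb around genes the distal share against all 3 factors turned (0.947) and the neighbour share against RFX1 alone was not called (1.23), nor was it with all annotated genes (1.18). With 20 kb the neighbour shares against RFX1 alone (1.16) and RFX3 alone (1.16) were not called, and the distal share against RFX1 alone turned (1.09). The X-box share turned against RFX1 alone with up to 1 mismatch (0.905), against all 3 factors with up to 3 (6.21), and with 1 to 3 free letters between the arms, chosen after seeing the data, against all 3 factors (1.88) and RFX1 alone (0.847); none was called. The cause was not tested. Depth behind the lists is unknown, and a missing peak does not show that a factor was absent. No paired analysis was possible because each list holds the merged replicates of its factor, and for the same reason no replicate could be left out.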

Other observations

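Letters of other factors were searched in the same 43 lncRNA promoter windows, on both strands, as a description. The nuclear factor I arm TTGGC was present in 32 of 43 (74.4%, 95% exact interval 58.8 to 86.5), none of which rested on the X-box match alone, against 44.5% of all 11588 lncRNA windows. The CCAAT box was present in 21 (48.8%, 33.3 to 64.5), against 36.0%, with no occurrence that rested on the X-box match alone. The AP-1 letters TGANTCA were present in 3 (6.98%, against 9.31%) and the forkhead letters TGTTTAC, of the family of Foxj1, in 1 (2.33%, against 4.83%). The motifs were picked after the files were read.

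Members were found on every autosome and the X, and none on the Y. Per 100 protein-coding genes they were most frequent on chromosome 12, with 13.99, and least, among chromosomes with a member, on chromosome 7, with 3.89. As a share of all merged regions between genes they ranged, over the same chromosomes, from 30.2% on chromosome 16 to 43.4% on chromosome X, with 46 of 106 regions there. These values were not tested.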
